A study of Sorghum bicolor with 12 samples.

Results

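The comparison of leaf transcriptomes of 2 sorghum (Sorghum bicolor) cultivars under a normal water supply, Jinliang 5 (JL) against Sanchisan (SCS), rests on 6 RNA-seq libraries of the series' 12. They were taken by their labels, 3 of JL control leaves and 3 of SCS control leaves, and the comparison was read across all 20873 genes with enough counts. The other 6 libraries, 3 per cultivar, came from leaves under drought and give the same genes at another water level. They also entered the edgeR fit, so the filter and the dispersion behind each control p-value rest on all 12 libraries. The labels give no treatment of the control plants beyond normal watering, no leaf age, and no origin of the 3 libraries of a group. Nothing says that they came from separate plants, so the spread behind every p-value is that among these libraries and may be technical. In bulk leaf RNA, fewer cells of a type and less RNA per cell cannot be told apart.

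Sorghum is a C4 grass. Mesophyll cells fix carbon dioxide with phosphoenolpyruvate carboxylase, and the resulting C4 acids are carried to bundle sheath cells, where NADP-dependent malic enzyme releases the carbon dioxide to the Calvin cycle. Sorghum leaves also carry epicuticular wax and the cyanogenic glucoside dhurrin, which is made from tyrosine by cytochrome P450 enzymes and a glucosyltransferase. Levels of photosynthesis, clock and starch genes follow the time of day and the age of the leaf, neither of which the labels give.

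The 6 libraries held 15542079 to 18356604 counts, and 100 genes took 37.2 ± 5.24% of them in JL control and 23.5 ± 5.43% in SCS control (SD, n = 3 each). That difference reached an exact permutation p of 0.1 (two-sided), the smallest that 3 against 3 libraries allow. On the first principal component of the 6 libraries, which held 53.5% of the variance, SCS control 1 and 2 scored -91.7 and -132, and JL control 1 and 2 scored 93.4 and 125. The remaining pair, SCS control 3 at -0.74 and JL control 3 at 5.84, lay next to each other between the cultivars. Medians without that pair are therefore given beside those of the gene lists.

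A second irregularity concerned JL control 1. Under a rule chosen after the values were seen, 50 genes had at most 3 counts in some control libraries and at least 100 in every other one. Of these, 6 split the 3 SCS from the 3 JL libraries, while 33 put JL control 1 with all 3 SCS libraries against JL control 2 and 3. With 30 counts in place of 100, 16 of 190 genes split by cultivar and 82 put JL control 1 with SCS. The drought libraries were mixed at the same 33 genes. SCS drought 1 and 2 matched JL control 2 and 3 at 21 and 18 of them, SCS drought 3 at 0, and JL drought 1, 2 and 3 at 27, 7 and 17. At the 6 genes that split the cultivars, JL drought 1, 2 and 3 matched JL control at 4, 6 and 4. SCS drought 1, 2 and 3 matched SCS control at 4, 4 and 5, and SCS drought 1 and 2 matched JL control at 2 each. The 33 genes were picked by their pattern in the control libraries, and whether a label is wrong was not tested. On the first principal component JL control 1 lay on the side of JL control 2. On the second, which held 21.9% of the variance, it lay on the side of the SCS libraries. There JL control 1 scored -68.2, and SCS control 1, 2 and 3 scored -1.16, -17 and -51. JL control 2 and 3 scored 26.7 and 111. The part of this irregularity in the differences below was not tested. Values without JL control 1 are given for the number of calls, for most list medians and for some of the called genes. Counts of members above or below SCS, and the p-values of other genes, include that library.

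At a Benjamini-Hochberg adjusted p below 0.05, edgeR's quasi-likelihood test called 5 genes between the cultivars, 0.024% of those tested, 2 higher (0.00958%) and 3 lower (0.0144%) in JL. At an unadjusted p below 0.05 it listed 3008 genes (14.4%), and the biological coefficient of variation was 63.3%. DESeq2 called 632 genes, 2.98% of the 21201 it tested, 331 higher (1.56%) and 301 lower (1.42%) in JL. All 5 edgeR calls were among them. Without JL control 1 edgeR called 6 genes, 2 of them shared with the 5, and DESeq2 called 340. With the 6 control libraries alone edgeR called 11 genes, 0.0575% of 19120, and shared 2 with the 5. In that fit the assembled locus described next and LOC8055583 passed (adjusted p = 0.0421 for both), and LOC8080535, LOC8155712 and LOC8057143 did not (adjusted p = 0.0729 for each). Leaving out any of the other 5 control libraries left 0 edgeR calls, as did leaving out both replicate 3 libraries, while DESeq2 then called 1838. Since so few genes passed, each group of genes below is also described by its members whose 3 JL libraries all lay above, or all below, the 3 SCS libraries. Over all tested genes this held for 12.3% above and 15.4% below, and the median log2 fold change (JL minus SCS) was -0.04. This background depends on the scaling. With library totals in place of TMM the shares were 3.74% above and 32.5% below and the median was -0.59, so counts of members above and below are relative to the TMM scaling. Under library totals photosystem and light-harvesting genes held 12 above and 0 below, cuticular wax 8 and 2, lipid-transfer proteins 9 and 1, and dhurrin genes 3 and 0. Cytosolic ribosomal proteins held 1 above and 81 below, histones and cell cycle 0 and 28, and pentatricopeptide repeat proteins 4 and 230.

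Of the 5 called genes, 2 were higher in JL. A locus that the authors assembled without a reference gene, on chromosome 10, best matches a plant mitochondrial succinate dehydrogenase subunit in the deposited annotation; that enzyme is complex II of the respiratory chain. It stood at 0.134, 0.334 and 0.341 CPM (counts scaled to a common library size) in SCS control 1, 2 and 3 and at 8.15, 7.67 and 11.2 in JL control 1, 2 and 3. The groups did not overlap, and the log2 fold change was 5.03 ± 0.50 (standard error, SE; edgeR adjusted p = 0.019). LOC8080535, which best matches a thioredoxin-like protein, a family of disulfide reductases, stood at 3.3, 3.42 and 4.15 CPM in SCS and at 22.8, 14.2 and 23.6 in JL. Every JL library lay above every SCS library (log2 fold change 2.48 ± 0.32, edgeR adjusted p = 0.0473). The deposited coordinates put the assembled locus on chromosome 10, 2512685 to 2515072, and LOC8080535 on chromosome 1, 76910928 to 76912785.

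The other 3 called genes were lower in JL. LOC8155712 encodes an ATP-dependent DNA helicase PIF1, a class that unwinds DNA and keeps genomes stable. It stood at 6.86, 9.01 and 15.5 CPM in SCS control and had 0 counts in all 3 JL control libraries. With a floor of 3 counts for the whole JL control group, its level was at least 134.6-fold lower in JL (edgeR adjusted p = 0.034). Its neighbour LOC8055583, an uncharacterized gene 704 bases away, stood at 10.3, 7.84 and 16.7 CPM in SCS control. In JL control it had 1 count in replicate 1 and 0 in the other libraries (edgeR adjusted p = 0.034). The pair lies on chromosome 2, LOC8055583 from 56381500 to 56383934 and LOC8155712 from 56384639 to 56386816.

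LOC8057143, a putative protease Do-like 14, belongs to a family of serine proteases of protein quality control and lies on chromosome 5, 11579102 to 11584619. It stood at 7.49, 9.09 and 10.1 CPM in SCS control and at 0.934, 0.584 and 0.337 in JL control, with no overlap (log2 fold change -3.84 ± 0.45, edgeR adjusted p = 0.034). The next gene, LOC8057144, lies 1355 bases away and encodes a 3-oxo-Delta(4,5)-steroid 5-beta-reductase. Its levels ran the other way, 2.72, 1.38 and 2.96 CPM in SCS and 14.2, 9.84 and 8.84 in JL, and it was called by DESeq2 alone (adjusted p = 0.00106; edgeR 0.284). Without JL control 1, the assembled locus on chromosome 10 and LOC8057143 kept an edgeR adjusted p below 0.05 (0.0378 and 0.0391). Of the 5 genes only LOC8155712 met the rule for named genes, and the other 4 are named because so few were called, after their values were seen.

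**Figure D1:**
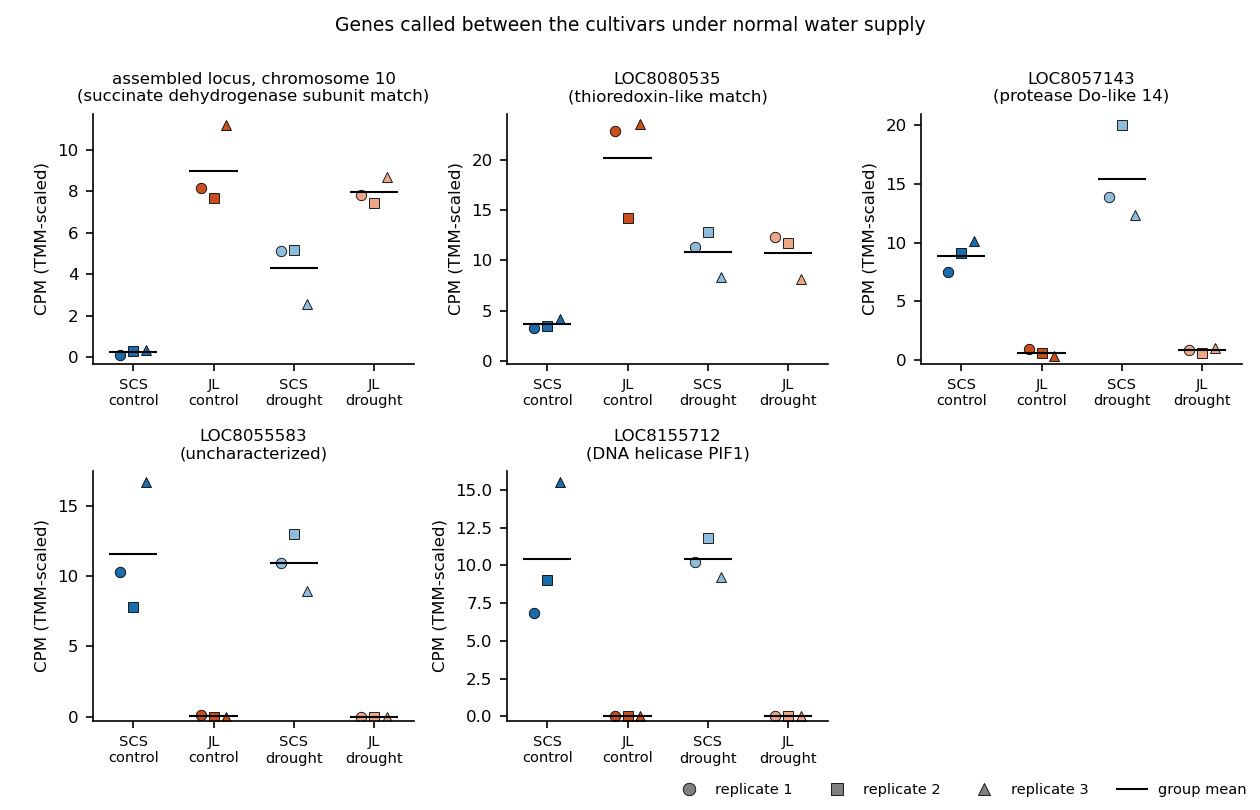
Level of the 5 called genes in every library, in TMM-scaled CPM (y axis) by group (x axis); circles, squares and triangles are replicates 1, 2 and 3, and bars are group means of 3 libraries. In the control groups no SCS library overlaps a JL library in any panel, and LOC8155712 is at 0 in all 6 JL libraries.

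Between the drought libraries 3 of the 5 genes were called again in the same direction. The groups compared are other libraries, but both calls come from the same fit and share each gene's dispersion. LOC8155712 stood at 10.2, 11.9 and 9.23 CPM in SCS drought and at 0 counts in all JL drought libraries (edgeR adjusted p = 0.00159). LOC8055583 stood at 11, 13 and 8.96 CPM in SCS drought and at 0 in JL drought (edgeR adjusted p = 0.00139). LOC8057143 stood at 13.9, 20.01 and 12.4 in SCS drought and at 0.86, 0.599 and 1.02 in JL drought (edgeR adjusted p = 0.00138). The 2 genes that were higher in JL control did not pass in drought. For the assembled locus on chromosome 10 the SCS drought libraries stood at 5.15, 5.17 and 2.56 CPM and the JL drought libraries at 7.82, 7.44 and 8.71 (edgeR adjusted p = 0.154). For LOC8080535 they stood at 11.3, 12.8 and 8.3 in SCS and 12.3, 11.7 and 8.13 in JL CPM and overlapped (edgeR adjusted p = 0.985).

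More widely, edgeR called 3916 genes between the cultivars in drought (18.8%), 2341 higher (11.2%) and 1575 lower (7.55%) in JL. Of the 2561 genes whose JL control libraries all lay above SCS, 935 (36.5%) did so again in drought and 87 (3.4%) lay wholly below. Of the 3210 genes below SCS in control, 965 (30.1%) were below again and 74 (2.31%) above. The corresponding drought shares over all tested genes were 17.2% above and 15.6% below. Of the genes DESeq2 called in control and edgeR tested, 151 of 326 higher in JL (46.3%) and 112 of 299 lower in JL (37.5%) were called by edgeR in the same direction in drought, against 11.2% and 7.55% of all tested genes. In the opposite direction 7 and 4 were called. The cultivar difference itself differed between water levels in 107 genes (0.513%), 10 of them among these 625.

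**Figure D2:**
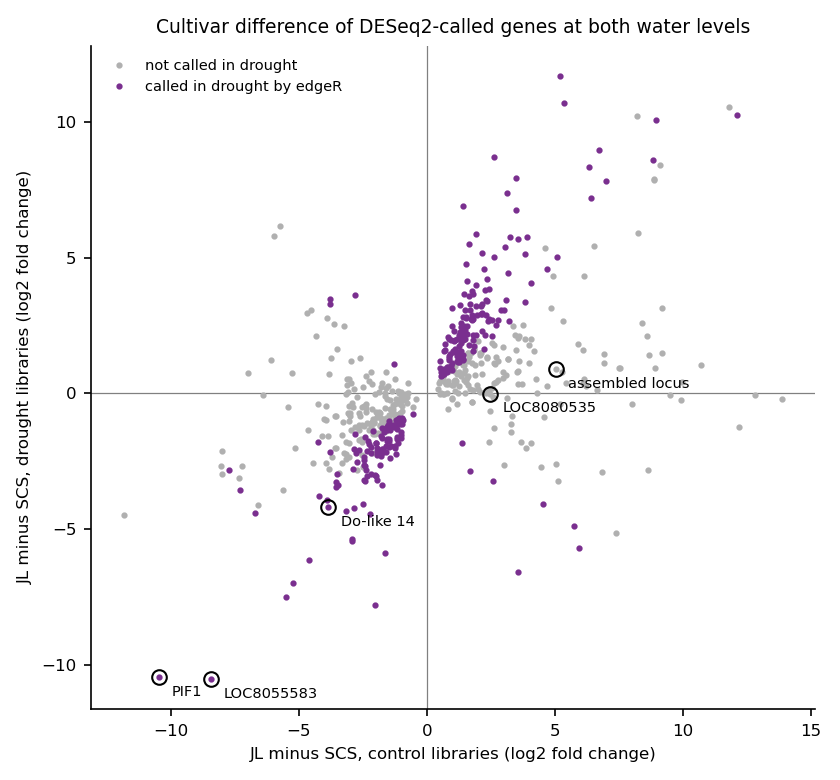
Log2 fold change of JL minus SCS in the control libraries (x axis) and in the drought libraries (y axis) for the genes called by DESeq2 in control; purple points were called by edgeR in drought, and rings mark the 5 genes edgeR called in control. Of the 625 genes, 537 (85.9%) have the same sign on both axes, against 65.9% of all tested genes.

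Among 170 genes with a known product, at least 10 CPM, a DESeq2 call in control and no overlap in the same direction at both water levels, 110 were higher and 60 lower in JL. The examples here were chosen after their values were seen. STRICTOSIDINE SYNTHASE-LIKE 10 (LOC8056183), of a family named after an enzyme of alkaloid synthesis, stood at 1.74, 3.5 and 5.51 CPM in SCS and 87.9, 43.8 and 21 in JL control, and at 1.01, 1.98 and 0.353 in SCS and 11.4, 11.6 and 92.8 in JL in drought (DESeq2 adjusted p = 0.00377 in control). Midasin (LOC8077000), an ATPase needed to mature large ribosomal subunits, stood at 68.8, 46.7 and 25.8 CPM in SCS and 10.6, 8.76 and 15.7 in JL control. Midasin was also lower in JL drought, at 18, 7.62 and 9.37 against 74.4, 138 and 71.8 CPM (edgeR adjusted p = 0.00367). Protein SRG1 (LOC8076184), named after a senescence-related gene, stood at 45.6, 17.1 and 12.6 in SCS control and 0.934, 1.58 and 7.35 in JL control. In drought it stood at 385, 159 and 198 in SCS and 12.7, 1.71 and 2.71 in JL (edgeR adjusted p = 0.00774). DNA ligase 1 (LOC8067120), which joins newly made DNA strands, and phosphomethylpyrimidine synthase (LOC8056723), of thiamine synthesis, were likewise below SCS in every JL library at both water levels.

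None of the 5 edgeR calls fell in any of the functional lists that follow, so their members carry edgeR adjusted p values of 0.0847 or more and are described by levels, overlap and DESeq2 calls. The lists were search patterns on gene descriptions, chosen with earlier results of these data known, and no list was tested as a set. The gene nearest to the threshold was LOC8059170, a receptor-like kinase of the ALE2 type that in Arabidopsis acts in forming the epidermis and cuticle. It stood at 87.3, 103 and 112 CPM in SCS and at 33.2, 31.2 and 38.4 in JL (log2 fold change -1.55 ± 0.22, edgeR adjusted p = 0.0847, DESeq2 8.86e-08).

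**Figure D3:**
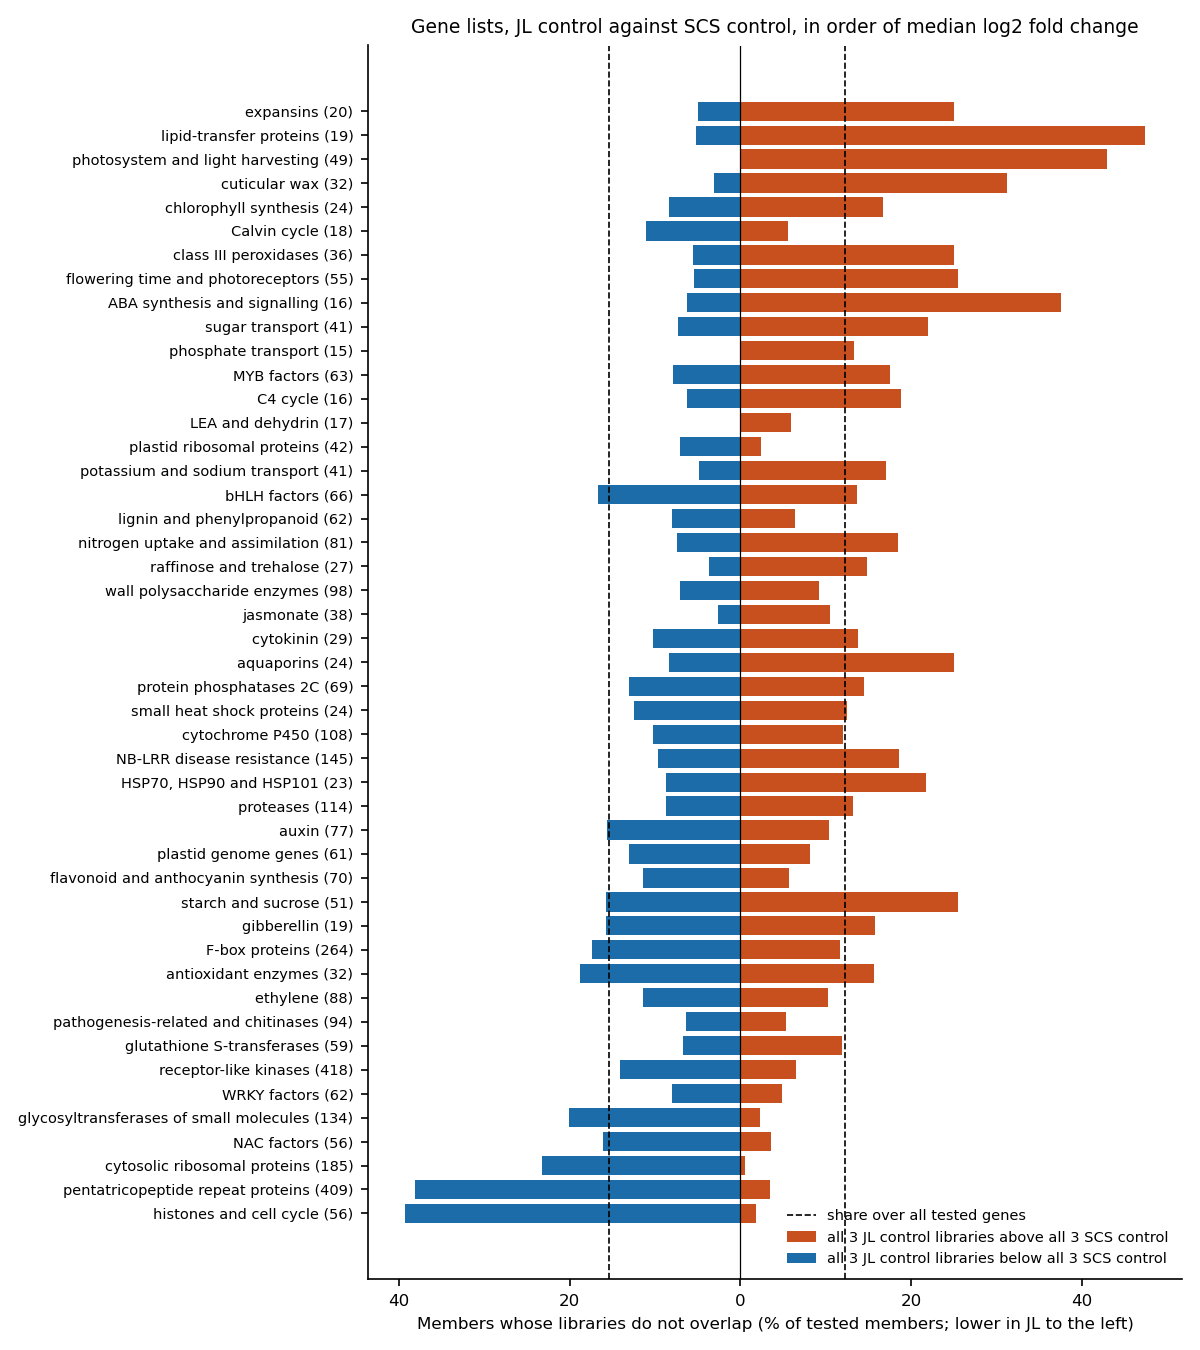
Share of the tested members of each gene list whose 3 JL control libraries all lay above (orange, right) or all below (blue, left) the 3 SCS control libraries, in percent; the number of tested members stands in brackets, and lists are in order of median log2 fold change. Dashed lines mark the shares over all tested genes, 12.3% above and 15.4% below; light harvesting, lipid-transfer and wax lists extend past the right line, and histones, pentatricopeptide repeat proteins and cytosolic ribosomal proteins past the left one.

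Photosystem and light-harvesting genes stood mostly above SCS in JL. Of 49 tested members, 21 lay wholly above (42.9%, against 12.3% of all genes) and 0 below, and the median log2 fold change was 1.52. DESeq2 called 9 members, all higher in JL. The median was 1.35 without JL control 1 and 2.25 without both replicate 3 libraries, when 48 of 49 lay above (31.1% of all genes). With library totals it was 1.00. Its summed level was 35671, 25357 and 75659.5 CPM in SCS control 1, 2 and 3 and 198201, 193547 and 73664 in JL control. JL control 1 and 2 were far above every SCS library, whereas the 2 replicate 3 libraries were nearly equal. In drought 45 of the 49 members were called higher in JL by edgeR, against 11.2% of all tested genes.

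The antenna proteins of this list bind chlorophyll and pass light energy to the reaction centres. LOC8082204, a chlorophyll a-b binding protein of LHCII type 1, stood at 351, 121 and 759.8 CPM in SCS and at 2917, 8650.4 and 3119 in JL (DESeq2 adjusted p = 0.0046). No library overlapped, and JL control 2 was the highest. LOC8077179, a chlorophyll a-b binding protein 1B-21, stood at 1030.4, 483 and 1989 in SCS and 6255, 6338 and 3016 in JL (DESeq2 adjusted p = 0.041). A second LHCII type 1 gene, LOC8082496, stood at 890.2, 362 and 2275 in SCS and 10613, 9373 and 1724 in JL CPM, and here JL control 3 lay below SCS control 3. Antenna genes are near-identical copies, and how shared reads were split among them is not given, so single members are uncertain. The photosystem I subunits LOC8078487 (subunit XI) and LOC8084161 (subunit III) were called by DESeq2 (adjusted p = 0.0431 and 0.0449). Subunit XI stood at 732, 437 and 1633 CPM in SCS and 4419, 4288 and 1821 in JL, again with the replicate 3 libraries closest together. The photosystem II 10 kDa polypeptide, LOC8071154, stood at 1908, 1358 and 2836 in SCS and 4389.8, 4884 and 3390.3 in JL without a call (DESeq2 adjusted p = 0.0578).

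**Figure D4:**
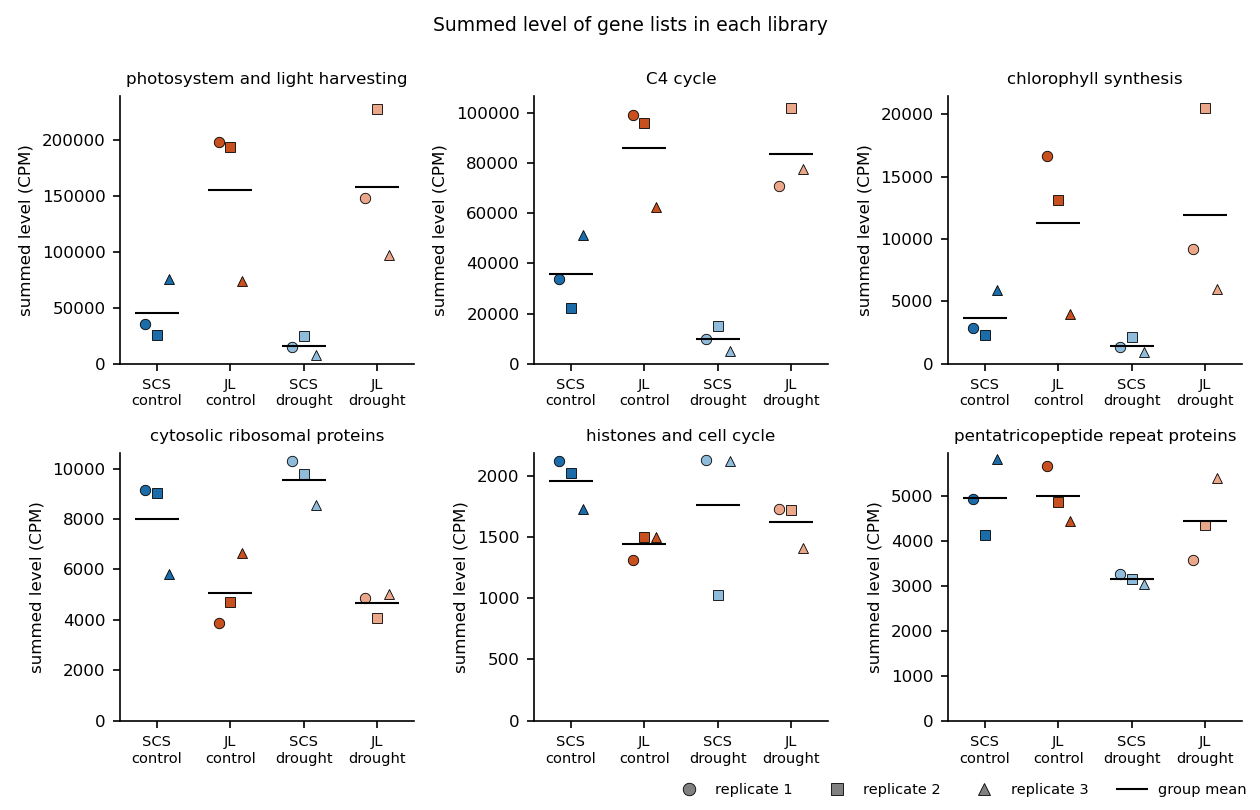
Summed level of 6 gene lists in every library, in CPM (y axis), by group (x axis); circles, squares and triangles are replicates 1, 2 and 3, and bars are group means of 3 libraries. Replicate 3 of SCS control and of JL control lie close together for photosystem and light-harvesting genes. The 3 C4 sums of JL control, from 62365 CPM upwards, all lie above the highest SCS control sum of 51244 CPM. The C4 list does not include pyruvate, phosphate dikinase 1.

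Chlorophyll synthesis followed with a median of 1.21 over 24 genes. Of these, 4 lay wholly above (16.7%) and 2 below (8.33%), against 12.3% and 15.4% of all genes. The median was 0.65 without JL control 1 and 1.64 without both replicate 3 libraries. Chlorophyllide a oxygenase (LOC8077402), which makes chlorophyll b, stood at 294, 182 and 514 CPM in SCS and at 921, 1031 and 547 in JL (DESeq2 adjusted p = 0.0283). Magnesium chelatase subunit ChlH (LOC8085857), of the first step specific to chlorophyll, stood at 751, 434 and 1813 in SCS and 7202, 5317 and 1423 in JL. Those groups overlapped, since JL control 3 lay below SCS control 3.

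Calvin cycle genes had a median of 1.15, but only 1 of 18 lay wholly above and 2 below, shares under those of all genes. The median was 0.87 without JL control 1 and 1.71 without both replicate 3 libraries, when 14 of 18 lay above (31.1% of all genes did). Rubisco activase (LOC8086040), which frees Rubisco of inhibitory sugars, was the member above, at 1215, 475 and 2057 CPM in SCS and 4380.4, 2489 and 3449 in JL. DESeq2 called none of the list.

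Among 16 genes of the C4 cycle the median was 0.38, and it was -0.15 with library totals, so its sign depended on the scaling. Library totals also moved the median of all tested genes, from -0.04 to -0.59. The C4 median was 0.26 without JL control 1 and 0.69 without both replicate 3 libraries. The list lacked pyruvate, phosphate dikinase 1 (LOC110430571), a C4 enzyme. That gene stood at 21509, 14102 and 29614 CPM in SCS and 46695, 49605 and 40250 in JL. Its groups did not overlap, and DESeq2 did not call it (adjusted p = 0.0709). Of the list itself, the 3 members named next lay above SCS in every JL library. NADP-dependent malic enzyme (LOC8078737) stood at 3835, 2573 and 6657 CPM in SCS and at 12796, 10507 and 10660.2 in JL (DESeq2 adjusted p = 0.0445). Phosphoenolpyruvate carboxylase 3 (LOC8058886) stood at 21535, 13418 and 31807 in SCS and 61236, 59584 and 36907 in JL (DESeq2 adjusted p = 0.181). The chloroplast carbonic anhydrase LOC110433917, which supplies bicarbonate to that carboxylase, stood at 5507, 3216 and 8312 in SCS and 18833, 20286 and 11743 in JL CPM without a call. The copy LOC8058220, a scarcer carbonic anhydrase on the same chromosome, ran the other way at 8.02, 22.1 and 34.1 in SCS and 2.04, 0.667 and 1.55 in JL (DESeq2 adjusted p = 0.0222).

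Starch and sucrose genes lay on both sides of a median of -0.08, with 13 of 51 wholly above (25.5%) and 8 below (15.7%). The median was above 0 without SCS control 2, SCS control 3 or JL control 2, and was -0.06 without JL control 1 and -0.24 without both replicate 3 libraries. The starch synthases, which extend the glucan chains, included soluble starch synthase 1 (LOC110430978), at 228, 245 and 403 CPM in SCS and 774, 657 and 648 in JL (DESeq2 adjusted p = 0.0249). Granule-bound starch synthase 1b (LOC8057926), the amylose-making type, stood at 184, 150.04 and 362 in SCS and 1337, 1129 and 828 in JL with no overlap but no call (DESeq2 adjusted p = 0.0659). Starch synthase 3 (LOC8085013) lay the other way, at 24.2, 13.3 and 19.4 in SCS and 3.82, 2.34 and 9.38 in JL, also without a call. So did beta-amylase 2 (LOC8062554), of a family of starch-degrading enzymes, at 31.7, 45 and 29.2 in SCS and 11.6, 11.5 and 17 in JL.

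In sugar transport 9 of 41 members lay above (22%) and 3 below (7.32%), against 12.3% and 15.4% of all genes. The median was 0.42, and -0.09 with library totals. It was 0.23 without SCS control 1, 0.21 without JL control 1 and 0.32 without both replicate 3 libraries, and 0.16 in the fit on the 6 control libraries. SUT1 (LOC8082113), which loads sucrose into the phloem, stood at 431, 363 and 599 CPM in SCS and at 893, 914 and 924 in JL (DESeq2 log2 fold change 1.00, adjusted p = 0.00546). Its JL values were close together and all above the SCS ones. The hexose carrier HEX6 (LOC8058076) stood at 10.2, 26.3 and 19.3 in SCS and 3.65, 4.34 and 7.15 in JL (DESeq2 adjusted p = 0.0396).

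Nitrogen uptake and assimilation held 15 members above (18.5%) and 6 below (7.41%) of 81, against 12.3% and 15.4% of all genes. The median was 0.24, and -0.25 with library totals. It was 0.21 without JL control 1 and 0.11 without both replicate 3 libraries. Carriers of the NRT1/PTR family, many of which carry nitrate or peptides, were among its DESeq2 calls. NPF 4.4 (LOC8075842) stood at 3.57, 6.71 and 9.49 CPM in SCS and 35.8, 72.4 and 19 in JL (DESeq2 adjusted p = 0.00145). NPF 5.6 (LOC8055690) stood at 31.5, 15.2 and 39.5 in SCS and 119, 277 and 162 in JL (DESeq2 adjusted p = 0.00447). Neither overlapped. Ferredoxin-dependent glutamate synthase (LOC8073135), of leaf ammonium assimilation, stood at 801, 424 and 923 in SCS and 1809, 1929 and 1874 in JL without a call.

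Genes of cuticular wax, the lipid layer that limits water loss, stood above SCS in many cases. Of 32, 10 lay wholly above (31.2%) and 1 below, and the median log2 fold change was 1.44, 1.11 without JL control 1 and 1.90 without both replicate 3 libraries. DESeq2 called 5, all higher in JL. WSD1 (LOC8072127), named after the Arabidopsis wax ester synthase, stood at 47, 51.4 and 88.3 CPM in SCS and at 509.7, 396 and 109 in JL (DESeq2 adjusted p = 0.0038). The 3-ketoacyl-CoA synthases elongate fatty acids, and number 6 (LOC8085289) stood at 21.1, 27.2 and 46.8 in SCS and 149, 163 and 67.1 in JL (DESeq2 adjusted p = 0.047), with the replicate 3 libraries closest together. ECERIFERUM 3 (LOC8060280), of alkane synthesis, ranged widely in JL, with 3.03, 10.8 and 18 CPM in SCS and 239, 72 and 16.5 in JL. It was called by DESeq2 (adjusted p = 0.0371) although JL control 3 lay below SCS control 3. ABC transporter G11 (LOC8078278), whose Arabidopsis counterpart exports cuticle lipids, stood at 0.579, 0.208 and 2.62 in SCS and 14.4, 17.8 and 16.6 in JL (DESeq2 adjusted p = 0.00102). The long-chain alcohol oxidase FAO2 (LOC8072490) was the member below, at 11.5, 13.3 and 11 in SCS and 5.18, 1.42 and 4.66 in JL.

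Lipid-transfer proteins are small proteins that carry lipids outside the cell, and 9 of 19 lay wholly above (47.4%) and 1 below, with a median of 1.80, 1.72 without JL control 1 and 2.31 without both replicate 3 libraries. DESeq2 called 5, all higher in JL. LOC8074555, a lipid-transfer protein 2, stood at 1.2, 0.292 and 0.966 CPM in SCS and 7.9, 192 and 99.9 in JL (DESeq2 adjusted p = 1.71e-07). JL control 1 was the lowest JL library by a wide margin. LOC8061116, a probable lipid-transfer protein 2, stood at 0, 0.125 and 0.171 CPM in SCS control and 0.679, 0.834 and 2.09 in JL control, and at 100.5, 153 and 61 in SCS drought and 0.313, 2.31 and 0.659 in JL drought (edgeR adjusted p = 0.293 in control and 0.00207 in drought). In the drought libraries the median of the list was -1.52. There edgeR called 1 of the 19 higher and 3 lower in JL, beside 11.2% and 7.55% of all tested genes.

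Expansins loosen growing cell walls, and their list had a median of 1.94 over 20 tested of 80 genes. Of the 20, 5 lay above (25%) and 1 below (5%), against 12.3% and 15.4% of all genes. The median was 1.26 without JL control 1 and 2.38 without both replicate 3 libraries, and 0.92 in the fit on the 6 control libraries. Expansin-A2 (LOC8085403) stood at 0.178, 0.459 and 0.625 CPM in SCS and 15.1, 3.5 and 1.75 in JL. Most of its excess lay in JL control 1. Of the wall enzymes, xyloglucan endotransglucosylase/hydrolase 24 (LOC8063814), which cuts and rejoins xyloglucan, stood at 40.7, 21.1 and 79.7 in SCS and 266, 329 and 221 in JL (DESeq2 adjusted p = 0.00258). Endoglucanase 9 (LOC8084557) stood at 13.9, 11 and 11.7 in SCS and 2.55, 1.42 and 3.98 in JL (DESeq2 adjusted p = 0.0176). Class III peroxidases, which act in the wall, held 9 above (25%) and 2 below (5.56%) of 36. Peroxidase P7 (LOC8072693) among them stood at 12.8, 6.84 and 8.7 CPM in SCS and 95.9, 41.7 and 46.7 in JL (DESeq2 adjusted p = 0.0311). The summed xylem markers, laccases and secondary-wall cellulose synthases, also differed between JL libraries, at 939, 463 and 42.6 CPM against 49, 79 and 128 in SCS. Of the 15 xylem genes 0 lay wholly above and 1 below, and their part in the wall genes was not tested.

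Of 11 genes of dhurrin synthesis and breakdown tested, 5 lay wholly above SCS (45.5%) and 0 below. The median was 1.59, 1.87 without JL control 1 and 1.42 without both replicate 3 libraries. The fit on all 12 libraries called none, and DESeq2 called none of the 8 for which it gave an adjusted p. Tyrosine N-monooxygenase (LOC8061413), the first enzyme, stood at 0, 0.0834 and 0.284 CPM in SCS and 43.6, 10.6 and 6.004 in JL. The second, 4-hydroxyphenylacetaldehyde oxime monooxygenase (LOC8060873), stood at 7.58, 11.2 and 15.3 in SCS and 90.2, 55.4 and 47.8 in JL. Cyanohydrin beta-glucosyltransferase (LOC8060874), which adds the glucose, stood at 1.69, 2.38 and 1.65 in SCS and 65.8, 76.1 and 90.5 in JL (log2 fold change 5.34 ± 1.39, edgeR adjusted p = 0.293). In the edgeR fit on the 6 control libraries alone it was called (adjusted p = 0.00739). DESeq2 gave no adjusted p for it or for LOC8061413. In drought the same gene stood at 192, 179 and 8.78 CPM in SCS and 33.9, 509.6 and 20.1 in JL, and the groups overlapped.

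These 3 genes lie on chromosome 1 among 7 consecutive tested genes, from 1041998 to 1197401, whose JL libraries all lay above SCS, the longest such run. The run also holds a glutathione S-transferase (LOC110430195) and a DETOXIFICATION 40-like transporter (LOC110430191), of families that conjugate and move small molecules. The transferase stood at 369, 244 and 549 CPM in SCS and 668, 716 and 653 in JL, and the transporter at 7.89, 8.13 and 13.9 in SCS and 21.3, 26.4 and 28 in JL. The outermost genes are an oxidoreductase UcpA (LOC8061411), with a log2 fold change of 0.40 that was -0.12 with library totals, and LOC8060875. Across the genome 19 runs of at least 4 genes met this description, 6 above and 13 below SCS, and 15 of them held 4 genes. No run was made of called genes. Hydroxymandelonitrile lyase (LOC110435085), which releases cyanide from dhurrin's breakdown product, lies on another chromosome and overlapped between the groups, at 63.2, 63 and 134 in SCS and 242, 91.6 and 185 in JL CPM.

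**Figure D5:**
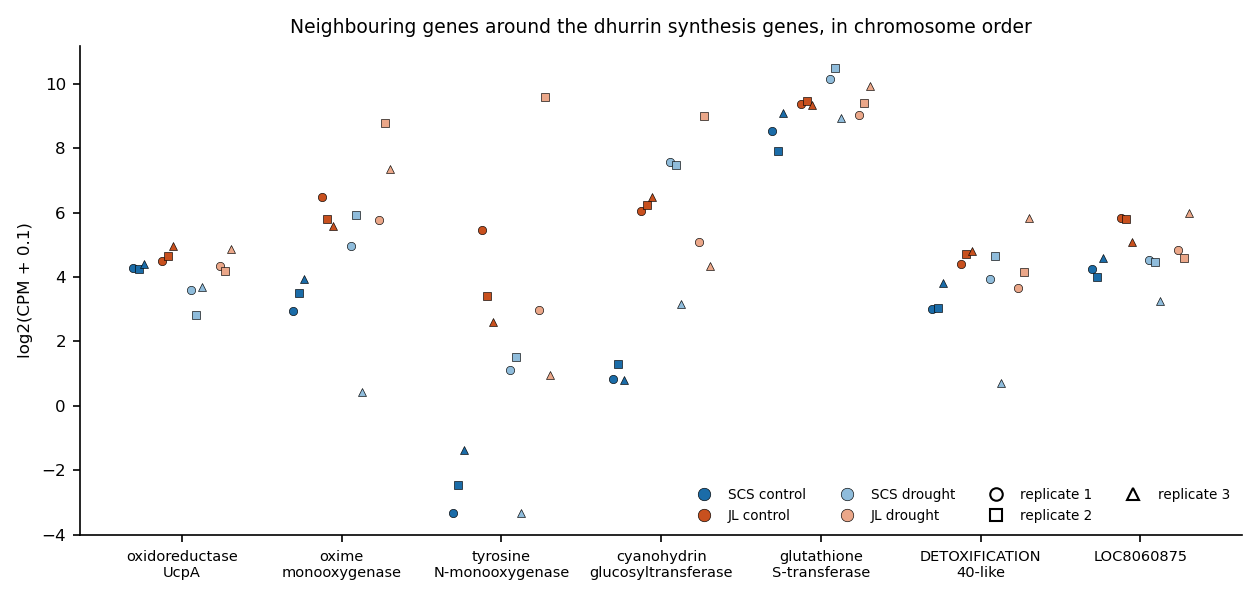
Level of the 7 consecutive genes of the run on chromosome 1 in every library, as log2(CPM + 0.1) (y axis), in chromosome order (x axis); dark symbols are control and light symbols drought libraries, and shapes are replicates. In control all JL symbols lie above all SCS symbols for each gene, with the widest gaps at tyrosine N-monooxygenase and cyanohydrin glucosyltransferase.

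On the lower side stood the protein-making genes. Of 185 cytosolic ribosomal protein genes, 1 lay wholly above and 43 below (23.2%, against 15.4% of all genes), with a median of -0.62. DESeq2 called 1 higher and 8 lower. The median was -0.49 without JL control 1 and -1.12 without both replicate 3 libraries, when 171 lay below (37.3% of all genes did). Summed levels were 9143, 9030.3 and 5839 CPM in SCS and 3872, 4722 and 6651 in JL, so that JL control 3 exceeded SCS control 3. Ribosomal protein L23 (LOC8085517) stood at 135, 135 and 93.9 in SCS and 40.3, 50.5 and 73.2 in JL (DESeq2 adjusted p = 0.0112), and S3a (LOC8060639) at 54.9, 51.6 and 38.1 in SCS and 17.9, 17.9 and 27.7 in JL (DESeq2 adjusted p = 0.0153). In drought 92 of the 185 were called lower in JL by edgeR and 0 higher, against 7.55% and 11.2% of all tested genes. Ribosomal protein genes come in close copies, so single values are uncertain.

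The exception was S9-2 (LOC8063507), with 0 counts in SCS control and 4.84, 6.26 and 10.5 CPM in JL, at least 153-fold higher against 3 counts over the group. In drought it stood at 10.6, 10.7 and 0 in SCS and 9.22, 2.22 and 6.44 in JL. Plastid ribosomal proteins were mixed, with a median of 0.29 that was -0.12 without JL control 1 and 0.75 without both replicate 3 libraries, and -0.27 with library totals. Plastid ribosomal protein S1 (LOC8060886), which binds messenger RNA, was called by DESeq2 (adjusted p = 0.00936), at 58.6, 41.3 and 99 CPM in SCS and 229, 212 and 133 in JL.

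Histone and cell cycle genes, which mark dividing cells, lay below SCS in 22 of 56 cases (39.3%) and above in 1, with a median of -0.93. The median was -0.85 without JL control 1 and -1.50 without both replicate 3 libraries. Histone H1 (LOC8056631), the linker histone, stood at 269, 252 and 161 CPM in SCS and at 66, 92.8 and 77.2 in JL (DESeq2 adjusted p = 0.0341). Histone H4 (LOC8077977) stood at 32.9, 20.6 and 13.2 in SCS and 1.87, 1.92 and 6.88 in JL, and cyclin-D2-2 (LOC8061553), of entry into the cell cycle, at 15.4, 12.8 and 17.5 in SCS and 4.67, 3.42 and 7.15 in JL. Neither was called, though neither overlapped. In drought edgeR called 2 of the 56 higher and 1 lower in JL, shares under those of all tested genes (11.2% and 7.55%).

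Pentatricopeptide repeat proteins bind and process organelle RNA, and 156 of 409 lay wholly below (38.1%) and 14 above (3.42%), with a median of -0.71, -0.75 without JL control 1 and -0.86 without both replicate 3 libraries. DESeq2 called 23 lower and 1 higher. LOC8078052 stood at 18.3, 14.6 and 15.7 CPM in SCS and 5.52, 4.17 and 7.15 in JL (DESeq2 adjusted p = 1.36e-04). The member called higher, LOC8073483, stood at 3.12, 4.46 and 2.79 in SCS and 22, 11.3 and 10.9 in JL (DESeq2 adjusted p = 0.00404). Summed over the list, the levels overlapped, at 4918, 4133 and 5804 CPM in SCS and 5659, 4859 and 4442 in JL. Besides this list, CHLOROPLAST IMPORT APPARATUS 2 (LOC8065562), which in Arabidopsis raises the expression of chloroplast import and ribosome genes, stood at 20.9, 19.2 and 11 in SCS and 2.46, 3.25 and 3.85 in JL (DESeq2 adjusted p = 0.00153). The RNA-splicing factor CFM3 (LOC8071989) stood at 17.9, 13 and 18.6 in SCS and 3.31, 1.75 and 4.32 in JL (DESeq2 adjusted p = 3.92e-04).

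Glycosyltransferases of small molecules lay below SCS in 27 of 134 cases (20.1%) and above in 3, with a median of -0.52 that was -0.29 without JL control 2 and -0.90 without JL control 3. It was -0.47 without JL control 1 and -1.01 without both replicate 3 libraries. In drought edgeR called 14 of the 134 higher and 5 lower in JL, shares under those of all tested genes (11.2% and 7.55%). UDP-glycosyltransferase 73C3 (LOC8078794) stood at 31.3, 27.1 and 11.9 CPM in SCS and 0.849, 1.08 and 2.56 in JL (DESeq2 adjusted p = 0.0427). The putative anthocyanidin reductase LOC8069347, of tannin precursor synthesis, stood at 36.1, 43 and 8.53 in SCS and 1.7, 0.25 and 1.55 in JL (DESeq2 adjusted p = 0.00572).

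Receptor-like kinases, which sense signals at the cell surface, stood at 27 above (6.46%) and 59 below (14.1%) of 418, both under the shares of all genes. Their median was -0.38, -0.13 without SCS control 2, -0.50 without JL control 1 and -0.63 without both replicate 3 libraries. HERK 1 (LOC8071202), of a family that acts in cell elongation, stood at 42.6, 42.8 and 48.7 CPM in SCS and 16.8, 19.6 and 24.8 in JL (DESeq2 adjusted p = 0.0164). The NB-LRR disease resistance genes, intracellular immune receptors, held 27 above (18.6%) and 14 below (9.66%) of 145. Their median of 0.03 was below 0 without JL control 1, without SCS control 3, without both replicate 3 libraries and with upper-quartile scaling or library totals. The member RGA3 (LOC8065189) stood at 5.35, 8.38 and 4.83 in SCS and 40.4, 50.7 and 38.3 in JL (DESeq2 adjusted p = 0.0356). RPP13-like protein 3 (LOC110437063) showed the pattern of JL control 1 described above, at 0.267, 0.0834 and 0.284 in SCS and 0.34, 49.5 and 68.5 in JL.

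Flowering-time and photoreceptor genes held 14 above (25.5%) and 3 below of 55, with a median of 0.54, 0.40 without JL control 1 and 0.49 without both replicate 3 libraries. With library totals 7 lay above (12.7%) and 12 below (21.8%), with a median of 0.01. Over all tested genes the shares were then 3.74% and 32.5%, and the median was -0.59. FLOWERING LOCUS T (LOC8061952), of the family of mobile flowering signals, stood at 29.5, 33.6 and 51.6 CPM in SCS and at 112, 157 and 74.2 in JL (DESeq2 adjusted p = 0.0249). All JL libraries lay above. In drought it stood at 5.77, 4.56 and 4.28 in SCS and 122, 93.7 and 41.1 in JL (edgeR adjusted p = 0.00138). CONSTANS-LIKE 3 (LOC8059668), a zinc finger protein of light signalling, stood at 119, 74.2 and 185 in SCS and 288, 295 and 265 in JL in control (DESeq2 adjusted p = 0.0371).

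Of 13 clock genes, 5 lay above (38.5%) and 2 below (15.4%), against 12.3% and 15.4% of all genes. Their median was 0.16, and -0.37 with library totals. It was 0.10 without SCS control 1, 0.08 without JL control 3, 0.28 without JL control 1 and 0.14 without both replicate 3 libraries. CCA1 (LOC8080836), the morning component of the oscillator, stood at 1568, 975 and 2679.8 CPM in SCS and 4679, 4372 and 3718 in JL (DESeq2 adjusted p = 0.0881). PRR1 (LOC8072479), the evening pseudo-response regulator, stood at 15, 25 and 8.87 in SCS and 7.13, 0.834 and 3.91 in JL, the other way. Neither was called. The hour at which leaves were taken is not given in the labels.

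Of 17 LEA and dehydrin genes, whose proteins protect drying cells, 1 lay above and 0 below, with a median of 0.33 in control. That median was -0.19 with library totals and 0 without JL control 1, without JL control 3 and without both replicate 3 libraries; leaving out SCS control 1, 2 or 3 or JL control 2 gave 0.12, 0.63, 0.10 and 0.59. Their median between the drought libraries was -6.32, with 12 called lower in JL by edgeR, against 7.55% of all tested genes. Small heat shock proteins held 3 above and 3 below of 24 in control (12.5% each, against 12.3% and 15.4% of all genes), with a median of 0.08. Without both replicate 3 libraries 3 lay above and 14 below (58.3%, against 37.3% of all genes), with a median of -2.06. The median was -1.70 without JL control 3, -0.17 without SCS control 3, 0.54 without JL control 1, 0.52 without JL control 2 and 0.28 without SCS control 2. The 18.9 kDa member LOC8055079, a chaperone, stood at 14.2, 11.9 and 15.4 CPM in SCS and 35.7, 57.7 and 51.1 in JL (DESeq2 adjusted p = 0.0229). Proline genes held 2 above (22.2%) and 3 below (33.3%) of 9. Pyrroline-5-carboxylate synthase 2 (LOC110433516), the entry to proline synthesis, stood at 419.7, 322 and 353 in SCS and 112, 97 and 298 in JL without a call.

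Abscisic acid, the drought hormone, was represented by 16 genes of its synthesis and signalling, of which 6 lay above (37.5%) and 1 below, with a median of 0.49 that was -0.09 with library totals. It was 0.19 without JL control 2, 0.69 without JL control 1 and 0.31 without both replicate 3 libraries. Of 24 aquaporins, which pass water through membranes, 6 lay above (25%) and 2 below (8.33%), against 12.3% and 15.4% of all genes.

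Of 56 NAC transcription factors, many of which act in senescence and stress, 2 lay above and 9 below. Those shares were 3.57% and 16.1%, against 12.3% and 15.4% of all genes. The NAC median of -0.56 was -1.31 without JL control 3, -0.41 without JL control 1 and -1.54 without both replicate 3 libraries. NAC79 (LOC8078577) stood at 57.5, 66.4 and 45.4 CPM in SCS and 7.64, 8.67 and 11.1 in JL (DESeq2 adjusted p = 0.00834). NAC18 (LOC8060937) stood at 643, 658 and 484 in SCS and 98.3, 174 and 322 in JL without a call. A transcriptional activator of pathogenesis-related genes (LOC8071890) stood at 19.1, 40.1 and 15.5 in SCS and 3.99, 3.09 and 4.86 in JL (DESeq2 adjusted p = 0.009).

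Genes at 0 in 1 cultivar were few and mostly bore the JL control 1 pattern. With 0 counts in all 3 SCS control libraries and a mean of at least 10 CPM in JL, 12 genes were found, and 11 of these also had 0 counts in JL control 1. SCS drought libraries held counts for 9 of the 12. The exception that was on in all JL libraries was LOC8054464, an uncharacterized gene with 0 counts in all 6 SCS libraries. It stood at 60.8, 27.9 and 10.7 CPM in JL control and 14.3, 8.56 and 4.54 in JL drought (edgeR adjusted p = 0.101 in control and 0.00439 in drought). The cysteine-rich receptor-like kinase 29 (LOC8054547) shows the common pattern, with 0 counts in SCS control and in JL control 1 and 37.9 and 37.7 CPM in JL control 2 and 3. In the other direction 2 genes were found, LOC8155712 and the noncoding RNA LOC110430699. The latter stood at 19.8, 24.5 and 36.8 CPM in SCS control and 0 counts in JL control, at least 348-fold lower, but also at 0 in SCS drought 1 and 2.

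Of the 5 most abundant genes per length in each cultivar none was called by either tool, and all but a TSJT1-like protein are genes of photosynthesis. Phosphoenolpyruvate carboxylase 3 (LOC8058886) averaged 15155 ± 4054 FPKM in JL and 6263 ± 2599.8 in SCS (SD, n = 3 each), and pyruvate, phosphate dikinase 1 (LOC110430571), which regenerates the carbon dioxide acceptor, 13673 ± 1543 and 6385 ± 2285. In JL they were followed by chlorophyll a-b binding protein 5 (LOC8062994) at 11524 ± 5279 FPKM, carbonic anhydrase LOC110433917 at 8523 ± 2359 and chlorophyll a-b binding protein M9 (LOC8074608) at 7601 ± 4266. In SCS the TSJT1-like protein (LOC110429751), oxygen-evolving enhancer protein 1 (LOC110430997) and glyceraldehyde-3-phosphate dehydrogenase B (LOC110431784) followed, at 3343 ± 1338, 3236 ± 1492 and 3132 ± 1202 FPKM.

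Leaf markers were abundant, as the label has it. Summed mesophyll markers, without pyruvate, phosphate dikinase 1, were 29326, 19078 and 43944 CPM in SCS and 85731, 84575 and 51207 in JL. Bundle sheath markers summed to 6401, 5460.2 and 13303 in SCS and 25795, 20106 and 15398 in JL. Only 1 of 4 root markers was tested, and it stood at no more than 1.5 CPM in any control library. Of the marker lists, mesophyll held 2 of 10 above and 1 below, bundle sheath 1 of 9 above, and phloem 2 of 6 above and 1 below. Pollen held 2 of 13 below, and seed (5 tested) and root (1 tested) 0 in either direction.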

How the data were processed

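Per the labels' protocols, TRIzol leaf RNA was made into strand-specific libraries (NEBNext Ultra) after a Bioanalyzer integrity check and run on a NovaSeq instrument. StringTie 1.3.3b, STAR and HISAT2 2.0.4 stand in the submitters' processing notes without a role. Not given in the sources used here are the genome build, the read counter, its strand setting and how it treated reads shared by gene copies. The authors deposited whole-number counts per gene, not normalised, and FPKM values. The deposited FPKM equal count over length and over 1 constant per library, 0.758 to 1.41 times its total. Across libraries these constants were proportional to the DESeq2 size factors, so the FPKM are not a scaling independent of DESeq2. The FPKM served for alternatives and for levels between genes. Of 33897 genes (946 loci without a reference gene), 32940 matched the table of assembly Sorghum_bicolor_NCBIv3, 32939 with the same start and end; coordinates and names are the deposited ones.

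Genes were kept with filterByExpr of edgeR 4.0.16 (R 4.3.3), which left 20873 and removed 13024. Counts were scaled with TMM and fitted with 1 mean per group over all 12 libraries; a gene was called at an adjusted p below 0.05. The SE of a log2 fold change is its absolute value over the square root of edgeR's F statistic, not a fitted standard error. CPM in the text are TMM-scaled. FPKM in the text are means of 3 libraries. A floor of 3 counts over a group covers counting error only. Pairs of control libraries within a cultivar gave chi-square values of 39.8 to 163 per gene, far above counting noise, so none was counted as a repeat. The rule for named genes took called genes with a known product, at least 10 CPM and no overlap, up to 4 called members a list each way, genes absent from 1 cultivar, and the 5 most abundant genes; since only LOC8155712 met its first part, list members were also chosen by DESeq2 call and overlap. Members and lists were chosen with earlier results of these data known. Alternatives were DESeq2 1.42.0, limma 3.58.1 (trend on log2 FPKM, and voom), other scalings and filters, a replicate block and leaving out libraries. The scripts were tested on simulated data.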

Additional observations from a re-analysis of the deposited data

Results flagged for a closer look

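The cultivar difference under drought differed from that under normal water supply in 4 of the genes named above, by the interaction term of the edgeR fit. Over all tested genes it did so in 107 (0.513%). Most named genes were chosen by their control levels, which also enter that term. For LOC8061116, a probable lipid-transfer protein 2, the level was 0.0985 ± 0.0883 CPM in SCS control and 1.2 ± 0.774 in JL control, against 105 ± 45.9 and 1.09 ± 1.07 in drought (SD, n = 3 each; edgeR adjusted p = 0.0193). For the assembled locus on chromosome 10 the levels were 0.269 ± 0.118 and 9.01 ± 1.91 CPM in control and 4.29 ± 1.5 and 7.99 ± 0.652 in drought, in the same order of cultivars (edgeR adjusted p = 0.0298). LOC8080535 stood at 3.62 ± 0.461 and 20.2 ± 5.24 CPM in control and at 10.8 ± 2.3 and 10.7 ± 2.28 in drought (edgeR adjusted p = 0.0413). The alcohol oxidase FAO2, LOC8072490, stood at 11.9 ± 1.25 and 3.75 ± 2.04 CPM in control and at 0.643 ± 0.368 and 6.97 ± 3.6 in drought (edgeR adjusted p = 0.042). Its log2 fold change was -1.67 in control and 3.42 in drought.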

How the results depend on the processing

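The 5 edgeR calls in control stayed at 5 with RLE or upper-quartile scaling and a robust prior, were 4 with no filter, 7 with a stricter filter and 6 with library totals. They numbered 632 by DESeq2, 2320 by DESeq2 on the 6 control libraries and 1838 by DESeq2 without both replicate 3 libraries. They numbered 11 (5 higher, 6 lower) on the 6 control libraries alone, of which 2 were among the 5, 13, 12 and 27 by limma-trend on log2(FPKM + 1), on log2(FPKM + 0.1) and on log2(FPKM + 1) with no filter, and 0 by voom, without both replicate 3 libraries and with the replicate block. At an unadjusted p below 0.05 these last 3 listed 3106, 3825 and 2390 genes. Leaving out 1 library gave 0 to 6 calls, and for DESeq2 95 to 1267. The drought calls numbered 6006 by DESeq2, and 1811 to 3507 with 1 library left out; with library totals they split into 1440 higher and 4308 lower. The 107 interaction calls were 1320 by DESeq2, 183 with the stricter filter, 17 with the replicate block and 8 to 424 with 1 library left out. Whether replicate numbers pair the samples is not given in the labels. Same-numbered deviations from the control group means correlated at -0.22, -0.32 and -0.49, and differently numbered ones at -0.26 to 0.44. With so few libraries per group these values cannot decide it. Genes near absent in 1 cultivar numbered 14, with 23 at 5 CPM and 7 at 20 CPM. The median log2 fold change of all tested genes was -0.04 with TMM and -0.59 with library totals. With library totals the signs of LOC8061411 (-0.12) and of the medians for C4 cycle (-0.15), sugar transport (-0.091), nitrogen (-0.25), plastid ribosomal proteins (-0.27), NB-LRR (-0.51), clock (-0.37), LEA (-0.19), small heat shock proteins (-0.41) and ABA (-0.089) reversed. For small heat shock proteins it was -0.34 on the 6 control libraries. So did NB-LRR with upper-quartile scaling (-0.0056) and without both replicate 3 libraries (-0.17). Without both replicate 3 libraries the medians for starch, plastid ribosomal proteins, LEA and small heat shock proteins were -0.24, 0.75, 0 and -2.06. With 1 library left out, medians ranged from -0.081 to 0.081 for starch, from -0.12 to 0.57 for plastid ribosomal proteins, from -0.13 to 0.203 for NB-LRR, from 0 to 0.63 for LEA and from -1.70 to 0.54 for small heat shock proteins. Most alternatives here were planned; library totals, voom, the robust prior, the pair without replicate 3, DESeq2 on the 6 control libraries or without 1 library, and list medians without 1 library were chosen after seeing the data. The cause of these changes was not tested.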
